A study of Mus musculus with 14 samples.

Results

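DMC1 peaks that were found in *Hells* cKO testes without a *Hells* CTRL partner were selected by 4 criteria. They lay away from transcript starts, held CG dinucleotides below a set limit, and were centered inside an annotated gene. A peak was selected on its position, not on its strength: an autosomal *Hells* cKO peak with no *Hells* CTRL center closer than 400 bp, no GENCODE M21 transcript start within 1 kb of its center, fewer than 15 CG dinucleotides within 250 bp of the center, and a center within any annotated gene. This selection gave 1157 peaks, 6.76% of the 17117 peaks of the *Hells* cKO list and 7.49% of its 15443 autosomal peaks without a *Hells* CTRL partner. Such peaks made up 94.6% of the 16321 autosomal *Hells* cKO peaks, so lack of a partner is the usual state of the list and is no finding about the selected peaks. Distance to *Hells* CTRL centers, distance to starts, CG count below the limit and position inside a gene were fixed by the selection and are given below only as descriptions. The other autosomal *Hells* cKO peaks without a partner comprised 1746 CpG-poor peaks between genes, 2654 peaks away from starts with 15 or more CG, and 9886 peaks within 1 kb of a start. The same criteria, with the lists exchanged, gave 4998 *Hells* CTRL peaks inside genes, which are used below as the comparison in sequence of the same kind.

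DMC1 ChIP-SSDS, which recovers the single-strand DNA bound by DMC1 and so maps meiotic DSBs, was performed on whole testes of *Hells* CTRL mice (*Hells* fl/Δ, 5 weeks old, 2 testes per replicate) and *Hells* cKO mice (*Hells* fl/Δ with *Stra8*-iCre, 9 weeks old, 3 testes per replicate). The Cre is driven by a *Stra8* promoter, active in male germ cells around the entry into meiosis, and the *Hells* CTRL mice carry the deleted allele as well. The study found residual HELLS protein in *Hells* cKO testes and weak HELLS staining in a minority of their early meiotic nuclei. It proposes incomplete deletion in some spermatocytes. Both genotypes had 2 replicates, merged by the authors into 1 peak list per genotype, so no value has a spread between mice, and the age of the mice cannot be told apart from their genotype. The strength of a peak is the score that the authors deposited, a fragment count corrected for local background, and it was compared only within a list.

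In mice, PRDM9 binds its DNA motif and marks nearby nucleosomes, and the DSB machinery then acts at these sites, mostly away from promoters. HELLS is a chromatin remodeler that opens chromatin for PRDM9. Where PRDM9 does not act, DSBs form at other sites with accessible, H3K4me3-marked chromatin, chiefly promoters and also enhancers. The peaks described here lie away from annotated transcript starts and below the CG limit of the selection, although their mean CG count exceeds that of the autosomes. Enhancers were not examined and are not left out by the selection.

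The sequences at the centers differed widely. The windows below are 121 bp around the center on the plus strand of GRCm38, in lower case. They show 3 of the strongest peaks outside repeats, in introns of Lmo3 (a LIM-domain transcriptional cofactor), Sgms2 (a sphingomyelin synthase) and the lincRNA Gm31135. They then show the 4 strongest peaks outside called repeats with an ETS word within the window, in Cadm2 (a cell adhesion molecule), Usp50 (a ubiquitin peptidase family gene), Deptor (an inhibitor of mTOR) and Pla1a (a phospholipase), the second strongest with a CTCF word, in Pde7b (a cyclic nucleotide phosphodiesterase), and the strongest of the gene with most peaks, Robo1. Capitals mark the ETS word CCGGAA, the YY1 word ATGGCG and the CTCF word CCANNAGGG, each on either strand. The windows with the ETS word were chosen after their values were seen.
Lmo3, chr6:138474600-138474720, strength 244: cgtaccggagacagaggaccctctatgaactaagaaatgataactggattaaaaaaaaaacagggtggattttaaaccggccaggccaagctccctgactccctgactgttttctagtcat
Sgms2, chr3:131364169-131364289, strength 211: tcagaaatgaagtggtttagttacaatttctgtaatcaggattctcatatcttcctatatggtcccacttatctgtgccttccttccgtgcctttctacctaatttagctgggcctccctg
Gm31135, chr8:8380986-8381106, strength 161: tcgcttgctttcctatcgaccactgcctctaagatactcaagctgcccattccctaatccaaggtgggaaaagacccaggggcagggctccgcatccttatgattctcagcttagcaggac
Cadm2, chr16:67462946-67463066, strength 172: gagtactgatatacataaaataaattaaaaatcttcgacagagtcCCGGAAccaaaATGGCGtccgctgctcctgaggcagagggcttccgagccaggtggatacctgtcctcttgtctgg
Usp50, chr2:126780409-126780529, strength 68: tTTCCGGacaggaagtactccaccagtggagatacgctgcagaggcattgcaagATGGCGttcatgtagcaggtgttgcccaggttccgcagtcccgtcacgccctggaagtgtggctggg
Deptor, chr15:55121312-55121432, strength 99: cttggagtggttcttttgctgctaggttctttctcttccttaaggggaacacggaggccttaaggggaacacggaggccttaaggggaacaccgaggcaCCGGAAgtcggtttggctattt
Pla1a, chr16:38428495-38428615, strength 82: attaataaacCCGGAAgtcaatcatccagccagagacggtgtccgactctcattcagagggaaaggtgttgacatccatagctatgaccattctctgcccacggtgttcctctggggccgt
Pde7b, chr10:20662360-20662480, strength 51: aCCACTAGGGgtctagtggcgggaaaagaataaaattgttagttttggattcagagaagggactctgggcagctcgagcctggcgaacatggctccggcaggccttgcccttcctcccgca
Robo1, chr16:72650021-72650141, strength 36: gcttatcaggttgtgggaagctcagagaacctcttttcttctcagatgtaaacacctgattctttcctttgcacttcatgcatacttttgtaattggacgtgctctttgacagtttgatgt
The Cadm2 and Usp50 windows hold an ETS and a YY1 word within 121 bp. Both words were within 100 bp of the center in 6 peaks in all (0.519%). Taken singly, the ETS word was at 97 and the YY1 word at 68 of the 1157 centers. Whether the words coincide more often than these counts imply was not tested. The Lmo3, Sgms2, Gm31135 and Robo1 windows hold none of the words marked.

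The peaks were weak. Their median strength was 20 (95% confidence interval of the median 20 to 21), with quartiles of 14 and 32 and a range of 6 to 1102, whereas the peaks at transcript starts had a median of 42 (40 to 42) and the CpG-rich peaks away from starts one of 24 (23 to 25). CpG-poor peaks between genes had a median of 20 (19 to 20), the same value as inside genes. The median peak stood at percentile 30.1 of the *Hells* cKO list, and all 1157 together held 3.73% of its summed strength. When the whole list was divided into 10 classes of strength, the selected peaks were 11.6% (10.1 to 13.2) of the weakest class and 11.9% (10.4 to 13.7) of the next, and the share fell to 1.05% (0.621 to 1.65) of the strongest. Only 28 reached a strength of 100 or more, while 371 had 15 or less. Among the 1157 peaks, strength rose with the width of the deposited interval (Spearman rho 0.56 across peaks, which share libraries and whose width and strength come from the same reads) and showed no trend with CG count (0.01), G + C content (0.01) or distance to the nearest start (-0.02).

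**Figure D1:**
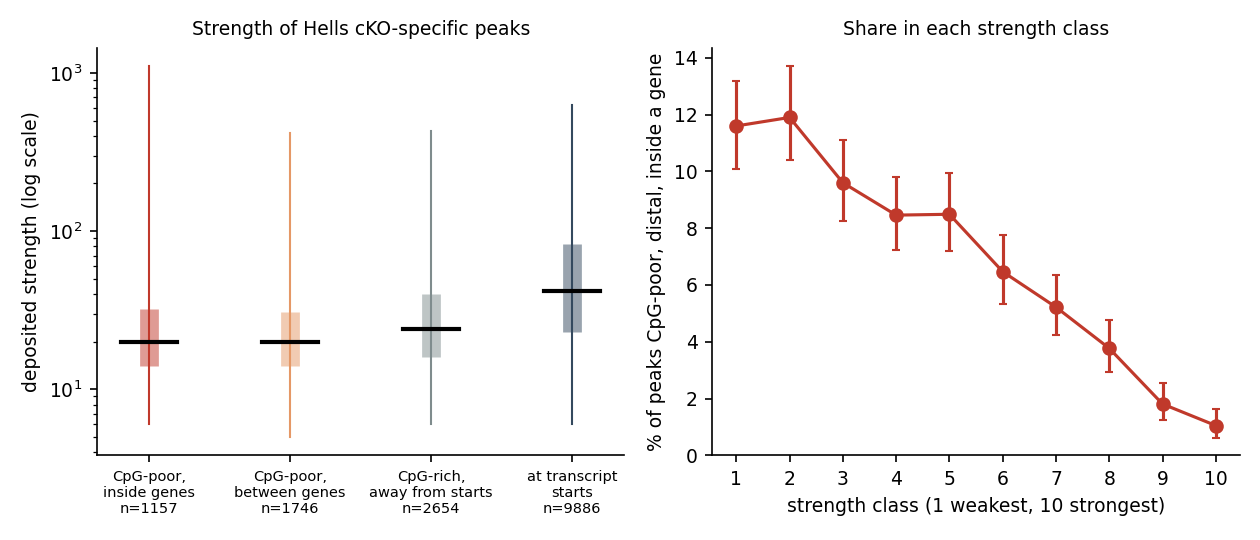
Left, deposited strength (log scale) of the 4 classes of *Hells* cKO peaks without a partner, as the range (thin line), the quartiles (bar) and the median (black line). Right, the share of each strength class of the whole *Hells* cKO list that is CpG-poor, distal and inside a gene, with exact 95% intervals for counting error, which falls from 11.6% in class 1 to 1.05% in class 10.

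The name CpG-poor holds only against the limit of the selection. The peaks had a mean of 10.6 CG dinucleotides within 250 bp of the center (median 11), compared with 4.26 per window of this length over the autosomes and 5.75 in windows 1000 bp away from the same centers. Of the 1157, 814 (70.4%) had 10 to 14 CG and 51 (4.41%) had 4 or fewer. The matching *Hells* CTRL peaks inside genes, held to the same limit, had a mean of 4.58. G + C content was 48.5% at the median (48.3 to 48.9), against 41.7% in the flanks, 41.9% over the autosomes and 43.5% (43.3 to 43.7) at the *Hells* CTRL peaks. The rise in CG and G + C spanned more than 400 bp on each side of the center and was nearly the same for CpG-poor peaks between genes, which had a mean of 10.5 CG. Both classes were held to the same CG limit within 250 bp, which bounds the height of the rise in CG there. Repeat-masked sequence covered the center of 13.6% (11.6 to 15.7) of the peaks, against 18.4% between genes and 18.8% at *Hells* CTRL peaks inside genes, where masked sequence makes up 33.5% of the autosomes and the authors kept uniquely mapped reads alone. Within the range of 10 to 14 CG, the shares were close (106 of 814 peaks, 10.8 to 15.5%, against 13.4%, 10.1 to 17.4).

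**Figure D2:**
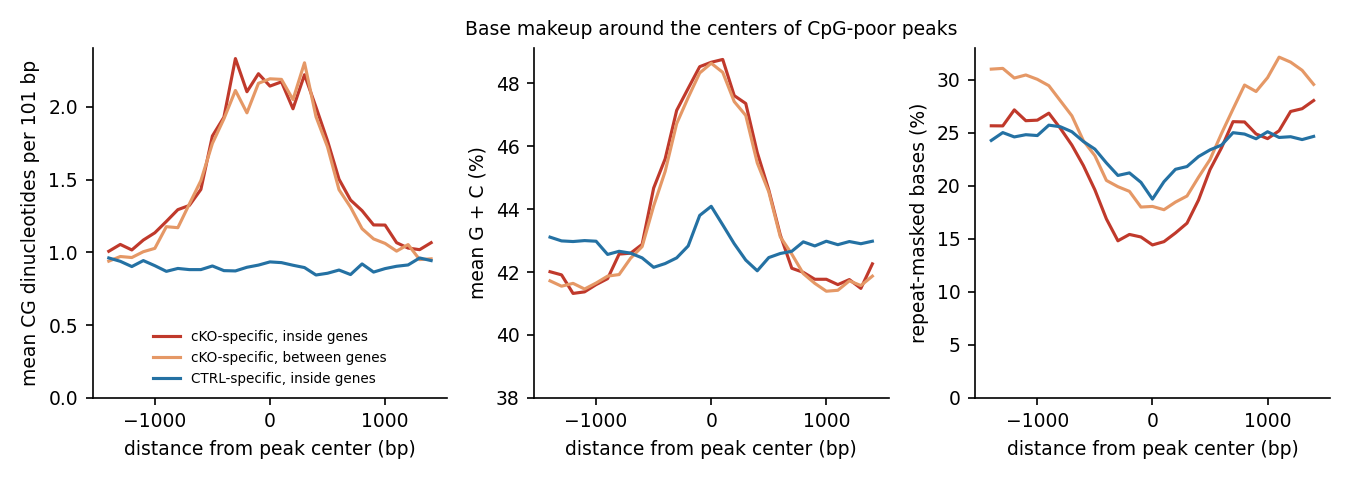
Mean CG dinucleotides, mean G + C content and share of repeat-masked bases in windows of 50 bp on each side of points up to 1400 bp from the centers of CpG-poor peaks. Both classes of *Hells* cKO peaks show a broad rise of CG and G + C around the center, where the *Hells* CTRL peaks inside genes stay near the level of their surroundings in CG.

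Some words read by transcription factors of promoters were found more often at the centers than next to them; a match is one of letters, not a bound site. ETS factors and SP1 are activators that bind many promoters, and YY1 is a zinc finger factor found at promoters and enhancers. In total, 15 words, of which YY1 was added after the data had been seen, were searched on both strands within 100 bp of the center and, for comparison, in windows of the same length 1000 bp away on each side. The ETS word CCGGAA was present at 97 centers (8.38%, 6.85 to 10.1) and in 1.99% (1.46 to 2.64) of the flanks, a ratio of 4.22. The SP1 word GGGCGG was present at 118 centers (10.2%, 8.51 to 12.1) and in 3.07% (2.40 to 3.85) of the flanks. At the *Hells* CTRL peaks inside genes the shares of both words overlapped those of their flanks (ETS 1.58% against 1.66%, SP1 2.16% against 1.93%), although most of those peaks had few CG. At transcript starts the shares were higher, 15.1% (14.4 to 15.8) for ETS and 46.5% (45.5 to 47.5) for SP1, and the peaks between genes had 7.85% and, for SP1, 175 of 1746, within the intervals of the peaks inside genes. Either word was at 202 of the 1157 centers (17.5%, 15.3 to 19.8), so most centers had neither within 100 bp.

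Both words contain CG, and their shares were higher in peaks with more CG. Among peaks with 10 to 14 CG, the ETS word was at 9.95% (7.98 to 12.2) of the *Hells* cKO and 4.93% (2.95 to 7.68) of the *Hells* CTRL centers inside genes, and the SP1 word at 12.2% (10 to 14.6) and 5.21% (3.16 to 8.01). These intervals did not overlap, but the peaks were not matched in CG within the range, with means of 12.2 CG in *Hells* cKO and 11.1 in *Hells* CTRL. In this range the *Hells* CTRL centers also had the ETS word more often than their flanks (1.64%, 0.852 to 2.85), while for SP1 the intervals overlapped (flanks 2.47%, 1.47 to 3.87). With 5 to 9 CG, where the means were 7.70 and 6.45 CG, the ETS word was at 5.48% (3.16 to 8.75) of *Hells* cKO and 1.87% (1.30 to 2.59) of *Hells* CTRL centers, and the SP1 word at 6.51% (3.96 to 9.97) and 3.15% (2.41 to 4.04), with overlapping intervals. The *Hells* cKO centers with 5 to 9 CG overlapped their own flanks in both words (ETS 2.23%, 1.19 to 3.78, SP1 3.42%, 2.10 to 5.24). None of the 51 peaks with 4 CG or fewer had either word, which allows a share of up to 6.98%. All 48 words that can be made from the letters of the ETS word with the same number of CG had a median share of 4.11% at the centers and 1.92% in the flanks, and CCGGAA was the most frequent of them. SP1 was the most frequent of the 5 words of its letters, but their median was already 8.73% at the centers. The YY1 word ATGGCG, added after the sequences above had been seen, was at 5.88% (4.59 to 7.39) of centers and 2.59% (1.98 to 3.33) of flanks. Another word of the same 60 was as frequent, and at 10 to 14 CG the interval of ATGGCG (7.37%, 5.67 to 9.39) overlapped that of *Hells* CTRL (3.56%, 1.91 to 6.01).

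**Figure D3:**
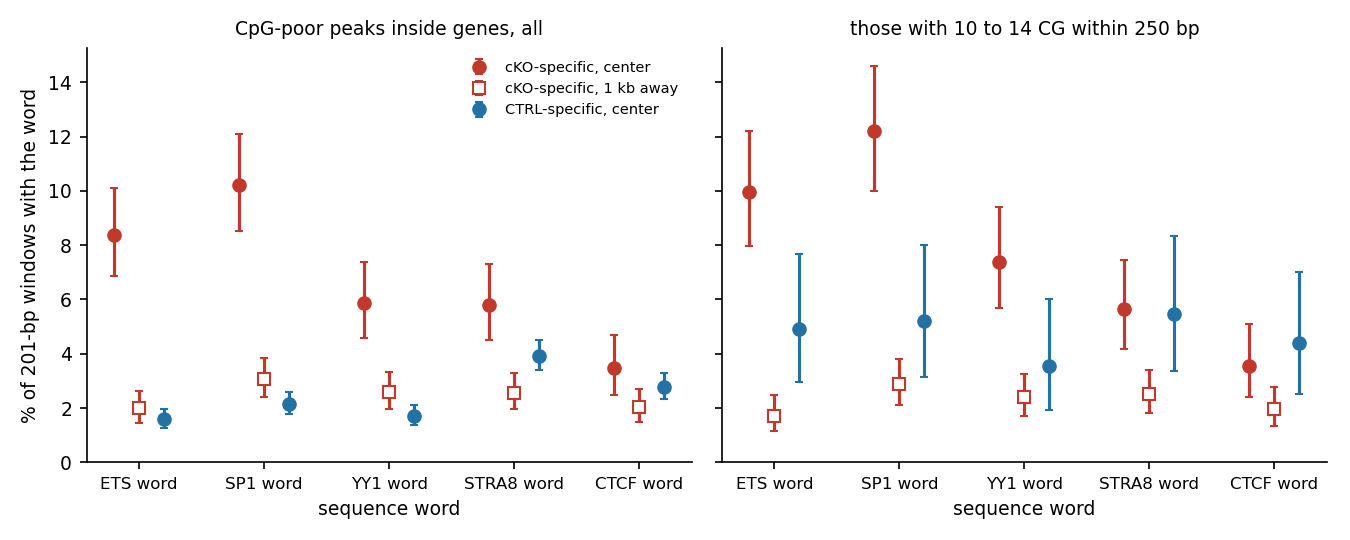
Share of windows (100 bp on each side of a point) that hold each word, with exact 95% intervals, at the centers of the *Hells* cKO peaks, 1 kb from these centers, and at the centers of *Hells* CTRL peaks inside genes. The left panel has all CpG-poor peaks inside genes and the right panel those with 10 to 14 CG, where the ETS and SP1 words remain more frequent at *Hells* cKO (9.95% and 12.2%) than at *Hells* CTRL centers (4.93% and 5.21%).

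The remaining words differed less. The STRA8 word CNCCTCAG, read by the meiotic transcription factor STRA8, was at 5.79% (4.52 to 7.30) of centers and 2.55% (1.95 to 3.28) of flanks, but at 10 to 14 CG its share (5.65%) lay within the interval of *Hells* CTRL (5.48%, 3.38 to 8.34). For CTCF, a zinc finger protein that organizes chromatin loops, the word was at 40 centers (3.46%, 2.48 to 4.68), against 2.03% (1.5 to 2.69) of flanks and 2.78% (2.34 to 3.28) of *Hells* CTRL centers. The X-box word GTTNCCATG, bound by RFX factors that act in ciliated cells and spermatids, was at 21 centers (1.82%, 1.13 to 2.76), which was above the share between genes (0.573%, 0.275 to 1.05) but overlapped that of the flanks (0.994%, 0.631 to 1.49). The GATA word AGATAA was less frequent at the centers (8.73%, 7.17 to 10.5) than in the flanks (12.3%, 11 to 13.7). It is rich in A and T, and G + C content was not matched between centers and flanks. The share was also lower at the centers of CpG-rich peaks (5.92% against 11.7%) and at starts (2.88% against 11.6%), while between genes the intervals overlapped. The CRE word TGACGTCA and the NRF1 word GCGCATGC were at only 3 and 4 centers. The AP-1 word TGANTCA, the DMRT word ACANTGT, the MYB word CAGTTG, the E-box word CACGTG, the CCAAT box and the nuclear receptor word AGGTCA had intervals at the centers that overlapped those of the flanks, DMRT narrowly (6.05%, 4.75 to 7.58, against 8.43%, 7.33 to 9.63). Peaks with an ETS or SP1 word had a median strength of 20 (18 to 23) and those without 21 (20 to 21).

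The words that mark *Hells* CTRL-specific peaks, which are sites of PRDM9 activity, had overlapping intervals at the selected centers and in their flanks. Each set of words below favors, by its choice, the class of peaks at which it was learned. Differences between the lists are therefore given only as descriptions, and the peaks were not matched in CG count for them. The 20 words of 8 letters most frequent at *Hells* CTRL-specific centers relative to their flanks, led by GGTGCTAC and GATGCTAC, were learned on odd-numbered autosomes and counted on even-numbered ones. They were at 39.2% (37.2 to 41.2) of the *Hells* CTRL centers inside genes and 9.54% of their flanks. At the *Hells* cKO peaks inside genes they were at 69 of 627 centers (11%, 8.66 to 13.7) and 8.77% (7.26 to 10.5) of flanks, with overlapping intervals. The share was similar at the *Hells* cKO peaks between genes (11.4%, 9.41 to 13.6) and somewhat higher at starts (14.5%, 13.5 to 15.6), where it exceeded that of the flanks (7.48%, 6.32 to 8.78, and 8.36%, 7.80 to 8.94). The 20 words learned in the same way at the selected peaks themselves, among them CCCACCTC, GGGAGGGA and AGGAAGGG, contained no CG, and 12 of them consisted of purines alone or pyrimidines alone. On the even-numbered autosomes they were at 36.8% (33.1 to 40.8) of the centers and 21% (18.7 to 23.3) of the flanks, at 33.9% (30.9 to 37.1) of the centers between genes and 39.9% (38.5 to 41.4) of those at starts, but at 24.7% (23 to 26.5) of *Hells* CTRL centers inside genes, the level of their flanks (23.8%).

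Tandem repeats were most frequent among the peaks with fewest CG. A repeat, called where at least 0.7 of the bases recur at a fixed distance of 10 to 400 bp over 500 bp, lay within 1 kb of the center in 35 peaks (3.03%, 2.12 to 4.18), against 1.15% (0.701 to 1.76) between genes and 0.66% in *Hells* CTRL peaks inside genes. The unit length given below is the distance with the highest identity. Such a unit can itself hold shorter, less alike copies, as the Enpp6 sequence below does. The best repeated stretch overlapped the deposited interval in all 35 but covered the center in only 4. With 4 CG or fewer, 11 of 51 peaks had such a repeat (21.6%, 11.3 to 35.3), and 0.652% (0.387 to 1.03) of the *Hells* CTRL peaks. With 5 to 9 CG the shares were 4.79% (2.65 to 7.91) and 0.587% (0.293 to 1.05), and with 10 to 14 CG 1.23% and 1.10%, with overlapping intervals. Peaks with a repeat held 7.28% of the summed strength of the 1157 peaks, a sum of 2446 to which a single peak contributed 1102. This peak lay in an intron of Enpp6, a choline phosphodiesterase. It was the strongest autosomal *Hells* cKO peak without a partner and the fourth of the whole list. It held 3 CG, and over its best stretch 0.956 of the bases recurred at a distance of 62 bp. The other 1156 selected peaks shared at most 0.203% of their words of 14 letters with the Enpp6 peak. The next repeat lay in Gm11168 and Gm26870 (209, chr9:3006018-3007225, units of 234 bp). The window around its center was fully repeat-masked, and how reads were placed within it was not examined. After it came those in Nsmce2 (154, units of 39 bp, 45.6% of the stretch inside the interval), the antisense gene Gm38155 (139, units of 62 bp) and Stxbp5 (119, units of 36 bp). At 8 weak or moderate peaks, in Afm, Evl, Kcnma1, Pde3a, Vmn2r27, Exoc6b, Nrg1 and Chl1, the distance was 214 bp, with strengths of 13 to 29. The median strength of all 35 was 22 (16 to 29), against 20 (19 to 21) for peaks without one. Neighbouring units inside the deposited interval are printed for the 2 strongest repeats with short units, the second unit in capitals.
Enpp6, chr8:47004394-47004517, strength 1102: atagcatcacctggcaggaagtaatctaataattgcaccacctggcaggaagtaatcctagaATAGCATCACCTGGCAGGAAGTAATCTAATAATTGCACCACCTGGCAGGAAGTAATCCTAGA
Nsmce2, chr15:59435008-59435085, at the edge of the peak of strength 154: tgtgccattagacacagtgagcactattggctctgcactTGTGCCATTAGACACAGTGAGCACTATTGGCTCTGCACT

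Most of the peaks were intronic. Of the 1157, 985 (85.1%, 83.0 to 87.1) were centered in introns and 79 (6.83%, 5.44 to 8.44) in coding exons. A further 57 (4.93%) were in exons of protein-coding genes outside annotated coding sequence, counting exons of all their transcripts, and 36 (3.11%) in exons of noncoding genes alone. The *Hells* CTRL peaks inside genes were in introns more often (91.6%, 90.8 to 92.4) and in coding exons less often (2.48%, 2.07 to 2.95). At 10 to 14 CG, however, the shares were close, with 676 of 814 and 303 of 365 in introns (both 83%) and 8.11% (6.33 to 10.2) against 7.95% (5.39 to 11.2) in coding exons. The same was seen for position along the gene. In protein-coding genes, 294 of 912 peaks (32.2%, 29.2 to 35.4) lay in the final 25% of the gene's length, against 26.2% (24.9 to 27.5) in *Hells* CTRL, and 145 (15.9%, 13.6 to 18.4) in the final 10%, but at 10 to 14 CG the shares in the final 25% were 34.1% (30.4 to 37.9) and 34.5% (29.4 to 39.9). An intron was counted as first if it was the first of any annotated transcript of the gene, including transcripts with internal starts. First introns in this sense held 308 of the 770 intronic peaks in protein-coding genes (36.5 to 43.6%) and 39.5% (38 to 41) in *Hells* CTRL. They can lie far from the 5′ end, as for a peak in Nrg1 at 93.2% of the gene's length. Median strength was 20 (17 to 25) in coding exons, 20 (18 to 23) in other exons and 21 (20 to 21) in introns. The strongest peak in a coding exon lay in Sox30, an HMG-box factor of the testis required for spermatid development (124, 14 CG, GRCm38 chr11:45991010-45993125).

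Genes that are not protein-coding held a larger share of the peaks than in *Hells* CTRL, also within the ranges of 5 to 9 and of 10 to 14 CG. Peaks within such genes alone numbered 245 (21.2%, 18.9 to 23.6), of which 166 lay in lincRNA genes, 30 in antisense genes and 26 in processed transcripts. In *Hells* CTRL their share was 10.5% (9.63 to 11.3). At 10 to 14 CG the shares were 21% (18.3 to 24) and 8.77% (6.07 to 12.2), and at 5 to 9 CG 21.6% (17 to 26.7) and 8.54% (7.31 to 9.90). The strongest of them were in the lincRNA genes Gm39469 (344, 2 CG), Gm13497 (164) and Gm31135 (161). Per Mb of sequence, CpG-poor *Hells* cKO peaks were less dense inside genes (0.995 per Mb over 1162 Mb) than between them (1.42), whereas *Hells* CTRL-specific peaks showed the reverse (4.30 and 3.10).

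The peaks were spread over many genes. They lay in 975 genes, of which 718 were protein-coding, 3.45% of the autosomal protein-coding genes. Most genes held 1 peak (828), 98 held 2 and 49 held 3 or more. Protein-coding host genes were long, with a median of 121 kb against 17.6 kb for all. The share of genes that held a peak rose from 0.593% (0.459 to 0.754) of those up to 20 kb to 40.8% (34.2 to 47.7) of those over 500 kb, but the number of peaks per Mb of gene changed little, from 0.748 to 1.01 over the same range, with a highest value of 1.04 between 200 and 500 kb. In *Hells* CTRL the number per Mb was lowest in genes up to 20 kb (2.86) and highest between 100 and 200 kb (5.42). Sequence within 1 kb of a start could hold no counted peak but was included in the Mb of gene, which lowers both densities most in short genes.

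A start peak of a gene, here and below, is a *Hells* cKO peak within 1 kb of any of its annotated transcript starts, internal ones included. That of Robo1, for example, lay 356 kb from the 5′ end. Host genes had a start peak in 406 of 718 cases (56.5%, 52.8 to 60.2), where 45.6% of all autosomal protein-coding genes had one and 45.2% (44.5 to 45.9) of the other genes. The number of annotated starts per gene was not matched between hosts and other genes. The direction depended on the length of the gene. Among genes up to 20 kb, hosts had a start peak less often than other genes (16.7%, 8.62 to 27.9, against 33.3%, 32.4 to 34.2), as among genes of 20 to 50 kb (44.8%, 35.6 to 54.3, against 57.3%, 55.9 to 58.7). Between 50 and 500 kb the intervals overlapped. Among genes over 500 kb, hosts had one more often (70.8%, 60.2 to 79.9, against 48.1%, 39.2 to 57). Where host and start both had a peak, 549 selected peaks could be set beside the strongest start peak of their gene, which was stronger in 420 (76.5%, 72.7 to 80.0), with medians of 45 and 21. In 8 genes both were among the strongest 10% of their kind, with limits of 51.4 and 142. Among them, Stxbp5, a regulator of vesicle fusion, had 119 within an intron (with the repeat described above) and 293 at its start, Bbx, an HMG-box gene, had 119 and 159, and Sox30 had 124 and 151.

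**Figure D4:**
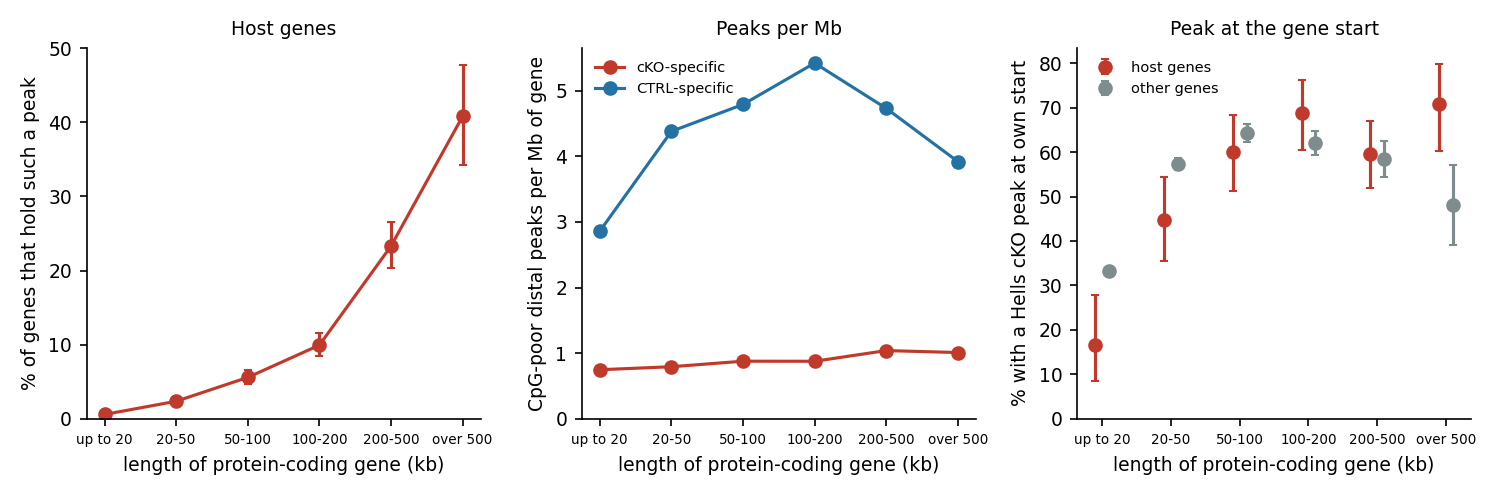
Protein-coding genes by length. The left panel gives the share that holds a CpG-poor distal *Hells* cKO peak, and the middle panel the number of such peaks per Mb of gene with that of *Hells* CTRL-specific peaks. The right panel gives the share of host and other genes with a *Hells* cKO peak within 1 kb of any of their transcript starts, internal ones included. Bars are exact 95% intervals. The share of host genes rises from 0.593% to 40.8%, and host genes fall below other genes in start peaks up to 50 kb and above them over 500 kb.

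The gene with most peaks was Robo1, a receptor for SLIT ligands in axon guidance, on chromosome 16. Along its 738 kb it held 11 peaks, with strengths from the 5′ end of 26, 14, 12, 20, 24, 36, 27, 17, 19, 14 and 13. All lay below the median of the *Hells* cKO peaks at starts (42), 3 were in coding exons near the 3′ end, and 6 lay in succession without another *Hells* cKO peak over 247 kb. The other *Hells* cKO peaks of the gene had strengths of 48, at an internal transcript start, and 58. One of the 11, of strength 20, lay 0.979 kb from a *Hells* CTRL center, which itself had 3 CG. That center fell inside the deposited interval of the selected peak. Arhgap15, a GTPase-activating protein for Rac, held 7 peaks of strengths 34, 43, 19, 22, 34, 42 and 22 over 387 kb of its 647 kb, with no other *Hells* cKO peak in the gene and none at its start. No other gene had as many peaks in such a run, although some shorter runs spanned more sequence, as in Cadm2 (632 kb) and St6galnac3 (474 kb). Akap6, an anchoring protein for protein kinase A, had 6 peaks of 21 to 88 and no start peak, and the lincRNA gene D130009I18Rik had 6 of 12 to 46 with a start peak of 39. Of the 7 genes with 5 peaks, the largest sums were in Mecom, a zinc finger transcription factor (19 to 42, start peak 41), and Hs6st3, a heparan sulfate sulfotransferase (11 to 62, start peak 23). Further runs without another *Hells* cKO peak were in St6galnac3, a sialyltransferase (5 peaks of 12 to 30), Lsamp, a neuronal adhesion molecule (5 of 10 to 29), Cadm2 (4 of 17 to 172) and Dcdc5 (4 of 12 to 94).

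**Figure D5:**
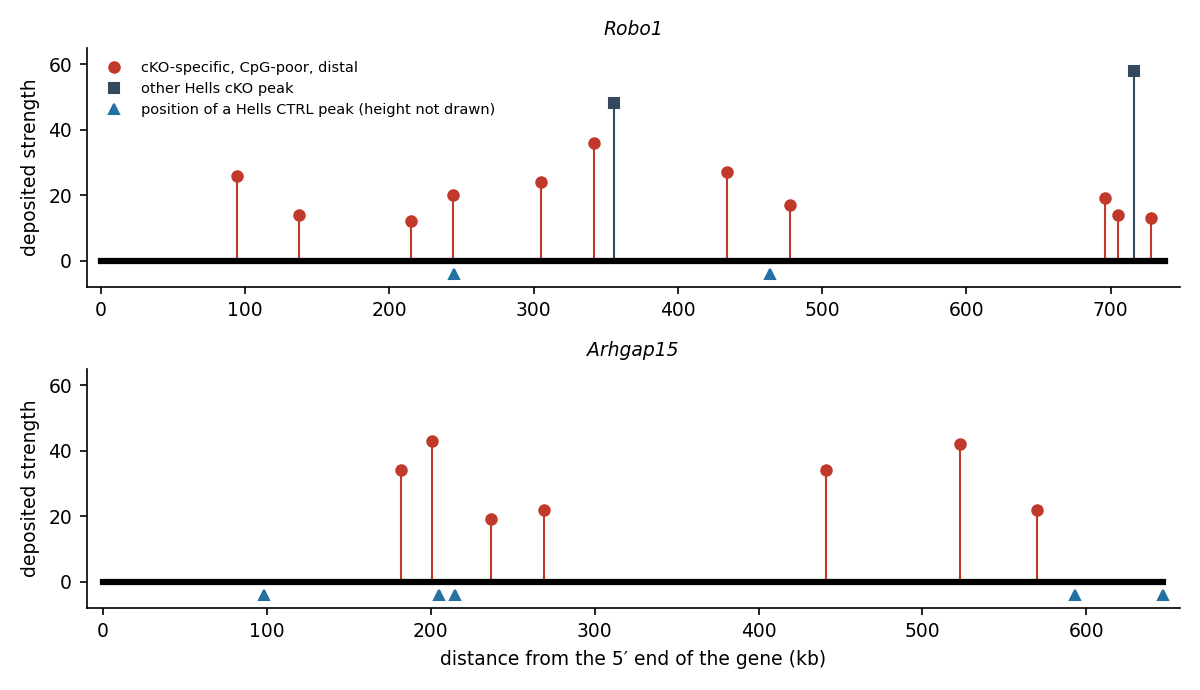
Deposited strength of the *Hells* cKO peaks along Robo1 (738 kb) and Arhgap15 (647 kb), by distance from the 5′ end of the gene; triangles give the positions of *Hells* CTRL peaks without their strength, which is on another scale. The 11 selected peaks of Robo1 lie between 12 and 36, below the 2 other *Hells* cKO peaks of the gene, and the 7 of Arhgap15, between 19 and 43, are its only *Hells* cKO peaks.

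The 12 strongest peaks were unlike each other. Beside the peaks with repeats in Enpp6 (1102), Gm11168 (209) and Nsmce2 (154, a SUMO ligase of the SMC5/6 complex), they comprised Gm39469 (344, chr9:124278906-124282277), Lmo3 (244, chr6:138473410-138475909), Sgms2 (211, chr3:131362679-131365778), Cadm2 (172, chr16:67462025-67463986), Proser1 (171, chr3:53478380-53480675), Gm13497 (164), Gm31135 (161), Msrb3 (161, a methionine sulfoxide reductase) and Ablim1 (152, an actin-binding LIM protein). In GRCm38, 10 of them were centered in introns, that in Proser1 in an exon outside annotated coding sequence, and that in Msrb3 in an exon of the antisense gene Gm15910. Their CG counts ran from 2 in Gm39469 to 13 in Lmo3 and Msrb3. The Lmo3, Sgms2, Cadm2, Proser1, Nsmce2 and Gm26870 genes had start peaks as well, of 25, 46, 84, 93, 132 and 147. Each was weaker than the peak within the gene, but the latter had been picked for its strength. Over all such pairs the start peak was mostly the stronger. Of the window around the Cadm2 center, 82.6% was repeat-masked.

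Gene lists of the germ line and of the testis gave few hosts. None of 58 autosomal genes of meiotic recombination and synapsis held a selected peak, which allows a share of up to 6.16% and so includes the background of 3.45%, although 50 of them (86.2%) had a *Hells* cKO peak at their start. Of 63 chromatin modifiers and remodelers only the histone deacetylase gene Hdac9 was a host, with 2 peaks, the stronger of 35, while 82.5% had a start peak. Among 29 genes of the piRNA pathway and transposon silencing only Dnmt3a, a de novo DNA methyltransferase, held 1 (32). Among 33 genes of spermatogonia Gfra1, the GDNF receptor of stem cells, held 1 (14). Among 54 genes of spermatids and sperm 4 were hosts, Spag16, Cfap43, Cfap44 and Spata16, the strongest peak lying in Cfap43, a flagellar axoneme gene (41). Markers of somatic cells gave 1 of 23 for Sertoli cells (Kitl, the ligand of KIT, 15) and 2 of 20 for Leydig and peritubular myoid cells (Lhcgr, the luteinizing hormone receptor, 20, and Myh11). All these shares had intervals that included 3.45%. Of 56 long genes, chosen mainly for neuronal adhesion molecules and receptors but with others such as the transcription factors Sox5, Nfib and Foxp2 and the oxidoreductase Wwox, 28 were hosts (36.3 to 63.7%), with 70 peaks of median strength 19.5 (15 to 25), the strongest in Tenm3, a teneurin (74). Their median length was 1105 kb, and the number of peaks per Mb was 1.08, against 0.919 over all protein-coding genes. CpG-poor *Hells* CTRL-specific peaks also lay in 46.1% (42.4 to 49.8) of all 718 protein-coding hosts and in 14.8% of all autosomal protein-coding genes, which are shorter.

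The peaks were unevenly spread over the autosomes. Chromosome 16 had 88 (1.96 per Mb of gene, 12.8% of its *Hells* cKO peaks without a partner, 10.4 to 15.6) and chromosome 10 had 110 (1.70 per Mb, 11.4%, 9.45 to 13.6), whereas chromosome 7 had 27 (0.367 per Mb, 3.36%, 2.22 to 4.85). Robo1 alone held 11 of the 88 on chromosome 16. Another *Hells* cKO peak lay within 10 kb of 146 of the 1157 (12.6%, 10.8 to 14.7). This was near the shares of peaks between genes (13.5%) and at starts (13.3%) and below that of CpG-rich peaks (17.4%). The nearest was at a start for 66, CpG-rich for 37 and another selected peak for 36. Of the 15443 autosomal peaks without a partner, 9886 were at starts, 2654 were CpG-rich and 1157 were selected.

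Peaks just inside and just outside the limits of the selection had these values. In Ttc7b the center lay 413 bp from a *Hells* CTRL center (strength 23), and the peak in Spag17 left out lay at 389 bp (12). Next to the limit of distance from a start were Gm34078 at 1013 bp (26) and Gm12689, left out at 991 bp (28). The 193 peaks with 14 CG had a median strength of 19, the strongest in Tbc1d4 (134), a Rab GTPase-activating protein of glucose transport, and the 185 left out with 15 CG a median of 22, the strongest in Nek7 (302), a protein kinase.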

How the data were processed

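DMC1 ChIP-SSDS had been performed on *Hells* CTRL and on *Hells* cKO testes, 2 replicates each. The authors aligned reads to GRCm38/mm10, kept uniquely mapped, non-duplicated reads, called peaks with MACS and deposited 1 merged list per genotype. The value of each peak is a score, the strength that the authors deposited: a fragment count, taken after re-centering and corrected for local background. Its library-size step could not be read from the whole numbers in the lists, and the depth behind each strength is unknown. The *Hells* CTRL list has 11133 peaks.

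Centers were taken as interval midpoints. Genes, exons and transcript starts came from GENCODE M21 and sequence from GRCm38.p6. Repeat masking was that of the reference. Genes, words, gene lists and the selection itself were chosen with earlier results of these data known. The genes named are the 12 strongest peaks, the 6 genes with most peaks (ties by summed strength), the strongest peak in each kind of exon, in noncoding genes and in each of 8 gene lists, those nearest the limits, up to 3 genes with strong peaks inside and at the start, and the 6 runs with most peaks. Any other gene was picked with its values in view. The YY1 word and the comparison within ranges of CG count were also added after the data had been seen.

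Shares have exact (Clopper-Pearson) 95% intervals and medians have binomial order-statistic intervals. They cover counting error only, peaks are not replicates, and with 1 list per genotype no test across mice was possible. Rules for classes, words, repeats and intervals were tested on simulated data. Scripts ran in Python 3.11.15 with pandas 2.3.3, scipy 1.17.1, numpy 2.4.6 and matplotlib 3.10.9.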

Additional observations from a re-analysis of the deposited data

How the results depend on the processing

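No paired analysis was possible because the replicates of each genotype were merged into 1 list, and for the same reason no replicate could be left out. The selection criteria were varied 1 at a time in 11 ways. The number of peaks stayed within 1.5 times of 1157 in 8 of these, among them 1138 when none could overlap a *Hells* CTRL interval. It was 343 with fewer than 10 CG, 1870 with fewer than 20 and 316 when only peaks at or above the median strength of the list were kept, a setting that by its construction raised their median strength to 44. The share in introns (85.1%) was 82.0% and 88.0% with a start reach of 500 bp and 5 kb, 90.1% and 79.8% with fewer than 10 and 20 CG, and 88.2% when only exons of protein-coding genes counted. The share of host genes with a start peak (56.5%) was 60.4% with a start reach of 500 bp in the selection, 61.2% with fewer than 10 CG, 62.3% among the stronger peaks, and 50.6% when the start peak had to lie within 500 bp. The share with a CTCF word (3.46%) was 5.06% among the stronger peaks and 7.87% in windows of 250 bp on each side. With fewer than 10 CG, the shares with an ETS word, an SP1 word and in a coding exon dropped to 4.66%, 5.54% and 3.79%, and the share in the final 25% of the gene to 27.9%. The share in a coding exon (6.83%) rose to 11% with fewer than 20 CG and to 8.66% among protein-coding genes only. The distance to *Hells* CTRL centers and leaving out tandem repeats moved none of these values beyond their intervals. Depth, age of the mice and any incomplete deletion of *Hells* could not be examined in the lists.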
